A study of Mus musculus with 88 samples.

Results

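The genes described here are 28 cholesterol and fatty acid synthesis genes, chosen by symbol from a list of enzymes, regulators and a sterol carrier of the 2 branches, out of 55364 genes in each table. All 28 had 1 row in each table under the same Ensembl identifier and are protein coding in RefSeq. They comprise 7 genes of the mevalonate arm, 3 that make squalene and lanosterol, 8 that turn lanosterol into cholesterol, 4 regulators and carriers, and 6 of fatty acid synthesis. Of these, 13 overlap another RefSeq gene, for example Fdft1 with Ctsb, Srebf1 with Rai1 and Srebf2 with Mir33, and Acat2 has closely similar neighbouring copies, so their levels are less certain.

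Cells build cholesterol from acetyl-CoA through mevalonate, isoprenoid diphosphates, squalene and lanosterol, and they build saturated and monounsaturated fatty acids from the same acetyl-CoA. When sterols run low, SREBP transcription factors are released from the endoplasmic reticulum, where INSIG proteins otherwise hold them, and switch on the genes of both branches. Early embryos live on maternal stores and on RNA inherited from the egg until their own genome is transcribed, so RNA levels of these genes in late 2-cell embryos can include both maternal and newly made transcripts.

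The total RNA libraries analysed here are 25 of the 88 samples of the series, 19 libraries of mouse embryonic stem (ES) cells and 6 of late 2-cell embryos. The other 63 samples, some of them also total RNA, were not analysed here. The ES cells were male, wild type, of a C57BL/6 and 129 hybrid background, grown with LIF, the MEK inhibitor PD0325901 and the GSK3 inhibitor CHIR99021, and transfected with a plasmid by Lipofectamine 2000. Groups of 2 libraries carried Dux (ES_Dux), Obox3 (ES_Obox3), Obox5 (ES_Obox5), Obox6 (ES_Obox6) or an empty plasmid (ES_Empty), and 9 single libraries carried other homeobox constructs. The labels give no time of RNA collection, no share of transfected cells and no promoter for these plasmids. Cloned embryos came from nuclear transfer (SCNT): nuclei of BDF1 cumulus cells were put into eggs freed of their own chromosomes, and the embryos received 10 ng/µl of Obox3 mRNA (SCNT_Obox3_L2C) or EGFP mRNA (SCNT_EGFP_L2C). Fertilised embryos, BDF1 by BDF1, were made by intracytoplasmic sperm injection (ICSI_L2C), and each of the 3 embryo groups had 2 libraries. All 25 libraries are labelled wild type.

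In the replicated ES groups the plasmid genes were found where the labels put them. Rows for Dux (Duxf3), Obox5 and Obox6 stood at 933 to 2031 TPM, a measure of transcript abundance scaled by gene length and library total, in their own groups, against at most 0.342 TPM in ES_Empty. For Obox3, the row of the near-identical copy Obox3-ps5 held 451 and 263 TPM in ES_Obox3, against 0 in both ES_Empty libraries, and the Obox3 row itself held 1.75 and 1.59 TPM in ES_Obox3, against 0 in both. The 6 ES cell markers were all above 1 TPM in these 10 libraries. Their sum was lower in ES_Dux, ES_Obox3, ES_Obox5 and ES_Obox6 (327 to 597 TPM) than in ES_Empty (1140 and 977 TPM). The 6 markers of 2-cell embryos summed to 1895 and 2094 TPM in ES_Dux, against 1.77 and 0.135 TPM in ES_Empty. They summed to 2.04 to 11.8 TPM in ES_Obox3, ES_Obox5 and ES_Obox6. These sums are of TPM as deposited, and the part of these markers in the results below was not tested. TPM add up to the same total in every library, and the top 10 genes of a library, largely short noncoding RNAs, took 48.9 to 73.8% of it in ES cells and 57.4 to 72.6% in embryos. The median gene tested stood 0.97 lower on the log2 scale in ES_Dux than in ES_Empty, 0.42 lower in ES_Obox3, 0.20 lower in ES_Obox5 and 0.09 lower in ES_Obox6. The tests were run on TPM as deposited and again after median-ratio scaling, which brings the typical gene to the same level in all libraries. A gene counts as called where limma's Benjamini-Hochberg adjusted p was under 0.05 and the log2 fold change was 1 or more in size. In bulk RNA, fewer cells of a type and less RNA per cell cannot be told apart.

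In ES cells 3 fatty acid enzymes had the highest mean TPM of these genes in ES_Empty. Scd2, a stearoyl-CoA desaturase, had 94.3 and 63.2 TPM in the ES_Empty libraries, Fasn (fatty acid synthase) 75.0 and 59.1 TPM, and Acly, which makes cytosolic acetyl-CoA from citrate, 70.3 and 53.9 TPM. Tm7sf2 and Hsd17b7, which act between lanosterol and cholesterol, were lowest, at 1.83 and 2.17 TPM and at 0.737 and 1.00 TPM. In the separately normalised embryo table the order was different, with squalene synthase (Fdft1) first. Fdft1 had 116 and 119 TPM in ICSI_L2C, Hmgcs1, which makes HMG-CoA, 58.2 and 68.4 TPM, and Sqle (squalene epoxidase) 46.2 and 61.3 TPM. Scd2 stood at only 1.00 and 0.759 TPM there and Tm7sf2 at 0.383 and 0 TPM. Tm7sf2 did not reach 1 TPM in any embryo library, so 27 genes were tested in embryos and 28 in ES cells.

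Promoter windows were read from RefSeq on GRCm38.p6 for the 250 bases before each annotated start, and 22 of the 28 genes had an entry (27 windows). Scd1, Scd2, Fdft1, Fdps, Sqle and Stard4 had none. The 3 motifs searched on both strands were TCACNCCAC, CCAAT and TAATCC. TCACNCCAC is 1 form of the sterol regulatory element to which SREBP proteins bind, and other forms of it were not searched. CCAAT is bound by the factor NF-Y, which works beside SREBP at many of these genes. TAATCC is the core recognised by the Otx and Crx homeodomain proteins, relatives of the Obox proteins. CCAAT was present in 18 of 22 genes (81.8%), against 37.5% of 27025 genes with a window. TCACNCCAC was present in 1 of 22, Hmgcs1, against 1.22% of all genes. TAATCC was present in 1 of 22, Mvk, against 7.21% of all genes. The windows below belong to Hmgcs1, the only member with both of the first pair of motifs, and to Dhcr7, Idi1 and Cyp51, the genes called on both scales with Obox3 or Obox5 in ES cells. Capitals mark motif matches, with CCAAT on the other strand reading ATTGG. Dhcr7 has 3 annotated starts, and the window shown, upstream of the third, is the only one of them that holds a match.
Hmgcs1, chr13:119690101-119690350, plus strand: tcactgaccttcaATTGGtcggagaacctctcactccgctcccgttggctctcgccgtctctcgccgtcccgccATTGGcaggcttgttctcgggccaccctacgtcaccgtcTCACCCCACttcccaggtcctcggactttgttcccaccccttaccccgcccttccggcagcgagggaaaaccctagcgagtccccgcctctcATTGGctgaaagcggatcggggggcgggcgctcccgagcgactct
Dhcr7, chr7:143829964-143830213, plus strand: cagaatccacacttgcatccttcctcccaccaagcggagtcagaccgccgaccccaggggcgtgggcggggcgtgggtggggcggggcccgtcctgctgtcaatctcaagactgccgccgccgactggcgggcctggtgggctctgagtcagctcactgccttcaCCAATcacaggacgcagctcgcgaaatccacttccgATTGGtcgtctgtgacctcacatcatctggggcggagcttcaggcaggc
Idi1, chr13:8885356-8885605, plus strand: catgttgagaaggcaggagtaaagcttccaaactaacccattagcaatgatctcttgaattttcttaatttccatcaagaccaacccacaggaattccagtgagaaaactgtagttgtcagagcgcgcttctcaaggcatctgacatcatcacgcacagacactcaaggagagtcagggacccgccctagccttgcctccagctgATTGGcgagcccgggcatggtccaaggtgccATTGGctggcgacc
Cyp51, chr5:4104698-4104947, minus strand: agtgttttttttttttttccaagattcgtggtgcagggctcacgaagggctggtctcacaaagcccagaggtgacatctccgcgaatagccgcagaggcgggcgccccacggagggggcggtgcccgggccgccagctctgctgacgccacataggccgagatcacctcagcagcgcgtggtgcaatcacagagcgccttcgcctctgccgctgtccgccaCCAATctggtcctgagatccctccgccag

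**Figure D1:**
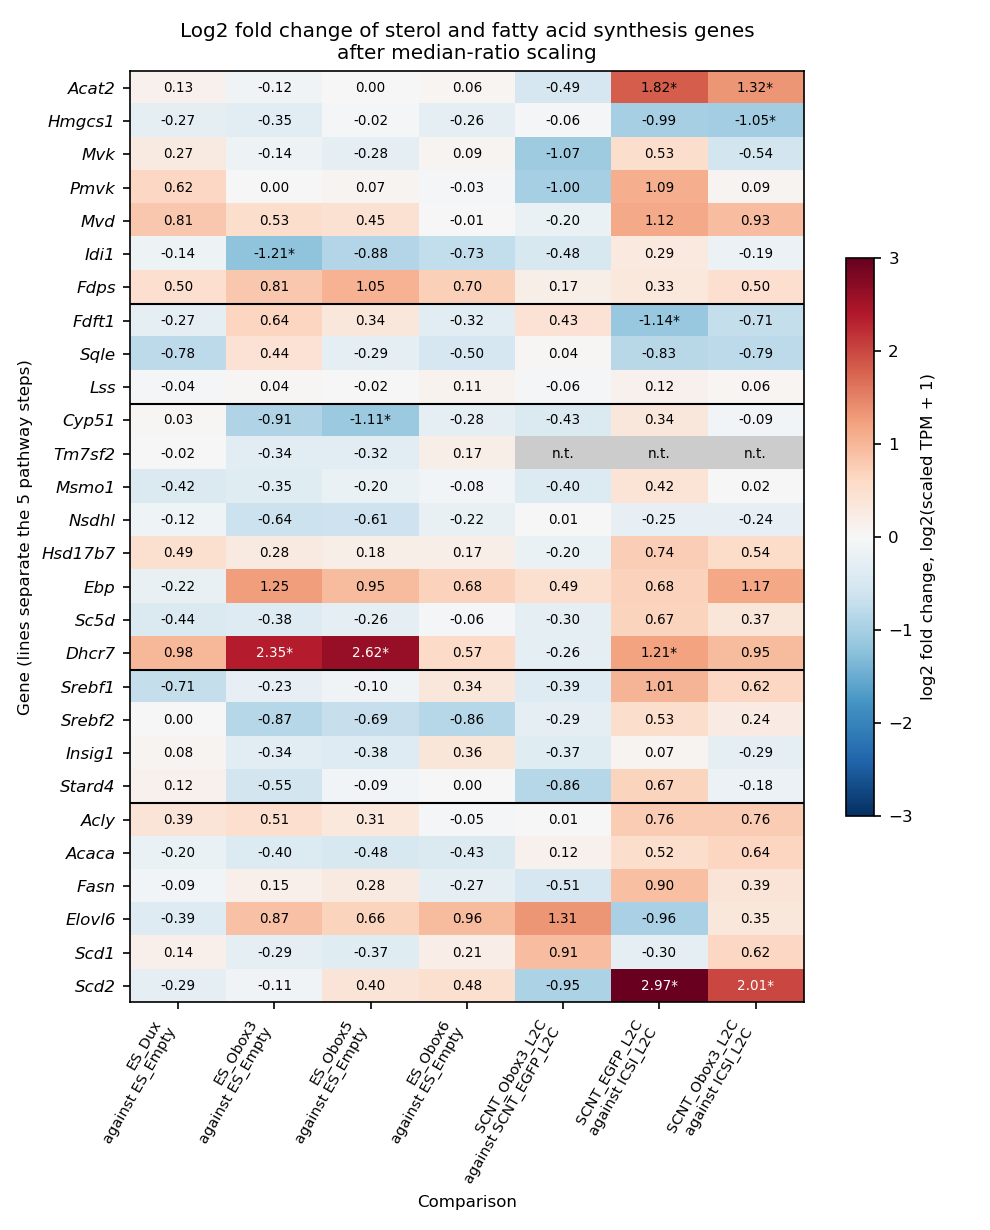
Log2 fold change after median-ratio scaling, on the log2(scaled TPM + 1) scale. Columns are the comparisons of replicated ES groups with ES_Empty and those between embryo groups, and rows are 28 genes grouped by role. A star marks a gene called both as deposited and after scaling, n.t. a gene that was not tested; Dhcr7 stands out in the ES_Obox3 and ES_Obox5 columns at 2.35 and 2.62, and Scd2 in the SCNT_EGFP_L2C against ICSI_L2C column at 2.97.

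With Obox3 in ES cells, Dhcr7 rose and Idi1 fell on both scales, while the other 26 genes had no call on both. Dhcr7 (ENSMUSG00000058454.15, chr7:143823167-143848410) encodes a reductase of the final steps to cholesterol. It had 19.6 and 12.2 TPM in ES_Obox3, a mean of 15.9 ± 5.25 TPM, against 3.83 and 3.35 TPM in ES_Empty, a mean of 3.59 ± 0.341 TPM (SD, n = 2 each). Both ES_Obox3 libraries lay above both ES_Empty libraries. The log2 fold change was 1.85 ± 0.23 (SE; limma adjusted p = 0.00105), and 2.35 ± 0.11 after scaling (limma adjusted p = 2.3e-05). Idi1 (ENSMUSG00000058258.14, chr13:8885606-8892396), the isomerase that makes the starting isoprenoid of farnesyl diphosphate, had 3.07 and 1.90 TPM in ES_Obox3 and 10.3 and 10.9 TPM in ES_Empty, without overlap. The log2 fold change of Idi1 was -1.76 ± 0.21 (limma adjusted p = 0.000785), and -1.21 ± 0.11 after scaling (limma adjusted p = 0.000351). Both calls were made again, on both scales, when any one of the 4 libraries was left out.

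The calls of the other genes in ES_Obox3 depended on the scale. As deposited, limma called 1 of 28 genes higher, against 4.67% of all genes tested, and 5 lower, against 13.6%. After scaling it called 2 higher and 1 lower, against 7.77% and 3.75% of all genes, and on both scales 1 was higher (Dhcr7) and 1 lower (Idi1), against 4.6% and 3.75%. The median of the 28 genes lay 0.28 below the median of all genes as deposited and at -0.13 after scaling. Ebp, the sterol isomerase upstream of Dhcr7, had 22.4 and 17.5 TPM in ES_Obox3 and 14.3 and 10.3 TPM in ES_Empty. Its log2 fold change was 0.66 as deposited (limma adjusted p = 0.0594) and 1.25 after scaling (limma adjusted p = 0.0015), and its libraries did not overlap on either scale. Lower as deposited, without a call after scaling, were Srebf2, the SREBP that drives the sterol branch (-1.48, and -0.87 scaled), Cyp51, the lanosterol demethylase (-1.47, and -0.91 scaled), Nsdhl, which acts after it (-1.12, and -0.64 scaled), and Stard4, a sterol carrier (-1.04, and -0.55 scaled). Without ES_Empty replicate 1 the Nsdhl and Stard4 calls were lost (limma adjusted p = 0.0654 and 0.0593), and without the unnumbered ES_Obox3 library Nsdhl stood at -0.90. Srebf2 had 12.5 and 9.02 TPM in ES_Obox3 and 32.9 and 30.0 TPM in ES_Empty, which did not overlap. By role, the regulators and carriers had the lowest median, 0.56 below all genes, with 2 of 4 called lower as deposited and 0 of 4 after scaling. The squalene and lanosterol genes stood 0.27 above it, with 0 of 3 called. None of the 6 fatty acid genes was called on either scale by limma, and 3 of 6 had an unadjusted p under 0.05 on each scale, against 43.5% of all genes as deposited and 35.4% scaled. As deposited the number called varied with the library left out, with 13 without ES_Empty replicate 2, 12 without ES_Obox3 replicate 1, 5 without the unnumbered ES_Obox3 library and 4 without ES_Empty replicate 1. In the same fits 16.9, 24.7, 12.9 and 11.3% of all genes were called, against 18.3% with all libraries.

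With Obox5, Dhcr7 rose and Cyp51 fell on both scales. Dhcr7 had 24.4 and 23.1 TPM in ES_Obox5, a mean of 23.7 ± 0.931 TPM, against 3.83 and 3.35 TPM in ES_Empty (SD, n = 2). The groups stood apart without overlap. The log2 fold change was 2.43 ± 0.23 (limma adjusted p = 0.000521), and 2.62 ± 0.11 after scaling (limma adjusted p = 2.1e-05). Cyp51 (ENSMUSG00000001467.5, chr5:4080674-4104697) had 3.60 and 4.02 TPM in ES_Obox5 and 14.2 and 9.87 TPM in ES_Empty, again without overlap. Cyp51 had a log2 fold change of -1.42 ± 0.25 (limma adjusted p = 0.00752), and -1.11 ± 0.16 after scaling (limma adjusted p = 0.0036). The call was lost without ES_Empty replicate 1 (limma adjusted p = 0.0646, and -0.94 after scaling) and without ES_Obox5 replicate 1 (limma adjusted p = 0.0561, and -0.97 after scaling). Idi1 had 4.13 and 4.05 TPM in ES_Obox5 and 10.3 and 10.9 TPM in ES_Empty, which did not overlap. It was called lower as deposited (-1.19; limma adjusted p = 0.00741) but at -0.88 fell short of the fold threshold after scaling, and the call as deposited was lost without the unnumbered ES_Obox5 library (limma adjusted p = 0.0521) or ES_Empty replicate 2 (limma adjusted p = 0.0523). Fdps, which makes farnesyl diphosphate from the product of Idi1, had 18.4 and 18.8 TPM in ES_Obox5 and 11.7 and 9.36 TPM in ES_Empty, and was called higher after scaling (1.05; limma adjusted p = 0.0014) but not as deposited (0.77). The scaled value was under the fold threshold without ES_Empty replicate 2 (0.96) or the unnumbered ES_Obox5 library (0.95). In all, limma called 1 of 28 genes higher, against 4.79% of all genes, and 2 lower, against 5.47%; after scaling 2 were higher and 1 lower, against 6.09% and 2.39%. On both scales 1 was higher and 1 lower, against 4.61% and 2.39% of all genes.

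With Obox6 no gene was called on both scales, where 2.25% of all genes were called higher and 1.29% lower. As deposited, limma called 0 of 28 higher, against 2.39% of all genes, and 1 lower, against 1.99%; after scaling it called 0 in either direction, against 2.8% and 1.32%, with 7 and 14 genes at an unadjusted p under 0.05 on the 2 scales, against 19.9% and 23% of all genes. The gene called as deposited was Srebf2, at 14.6 and 15.1 TPM in ES_Obox6 and 32.9 and 30.0 TPM in ES_Empty. Its log2 fold change was -1.03 ± 0.18 (limma adjusted p = 0.0157), and -0.86 after scaling. The libraries did not overlap, but the call was lost whichever of the 4 libraries was left out (limma adjusted p from 0.0745 to 0.13). Idi1 had 5.68 and 4.66 TPM in ES_Obox6 and 10.3 and 10.9 TPM in ES_Empty, a log2 fold change of -0.91 (limma adjusted p = 0.0418), and -0.73 after scaling, under the fold threshold. Elovl6, which lengthens palmitate, had 69.2 and 57.9 TPM in ES_Obox6 and 40.9 and 31.7 TPM in ES_Empty, and was not called at 0.80 as deposited (limma adjusted p = 0.106) or at 0.96 after scaling. Dhcr7 had 6.12 and 4.66 TPM in ES_Obox6, above both ES_Empty libraries but not called at 0.47 (limma adjusted p = 0.313) or at 0.57 after scaling.

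The difference between the constructs was tested for Obox6 and Obox3. Dhcr7 was lower in ES_Obox6, at 6.12 and 4.66 TPM, than in ES_Obox3, at 19.6 and 12.2 TPM, with a log2 fold change of -1.38 ± 0.23 (limma adjusted p = 0.00886), and -1.78 ± 0.11 after scaling (limma adjusted p = 0.000144). The call as deposited was lost without ES_Obox6 replicate 2 (limma adjusted p = 0.0515). It was the 1 gene of 28 called lower, against 2.52% of all genes as deposited, 4.83% after scaling and 2.51% on both. Fdft1 and Sqle were next, at -0.52 each as deposited (limma adjusted p = 0.157 and 0.173) and -0.96 and -0.94 after scaling, and were not called. Scd2, Cyp51 and Insig1, the sterol-regulated anchor of SREBP, were called higher as deposited (1.06, 1.03 and 1.13, and 0.60, 0.63 and 0.70 scaled), 3 of 28 against 6.61% of all genes, and 0 were called higher after scaling, against 2.63% (2.6% on both scales), with 16 genes at an unadjusted p under 0.05, against 31.8% of all genes. Insig1 had 17.6 and 15.0 TPM in ES_Obox6 and 8.71 and 5.39 TPM in ES_Obox3. Scd2 had 97.3 and 95.6 TPM in ES_Obox6 and 53.7 and 38.8 TPM in ES_Obox3, and neither gene's libraries overlapped. Without ES_Obox3 replicate 1 the number called higher or lower as deposited was 8, without ES_Obox6 replicate 2 it was 0, and without the unnumbered ES_Obox3 library or ES_Obox6 replicate 1 it was 1. In the same fits 12.9, 5.85, 5.68 and 3.59% of all genes were called, against 9.13% with all libraries.

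**Figure D2:**
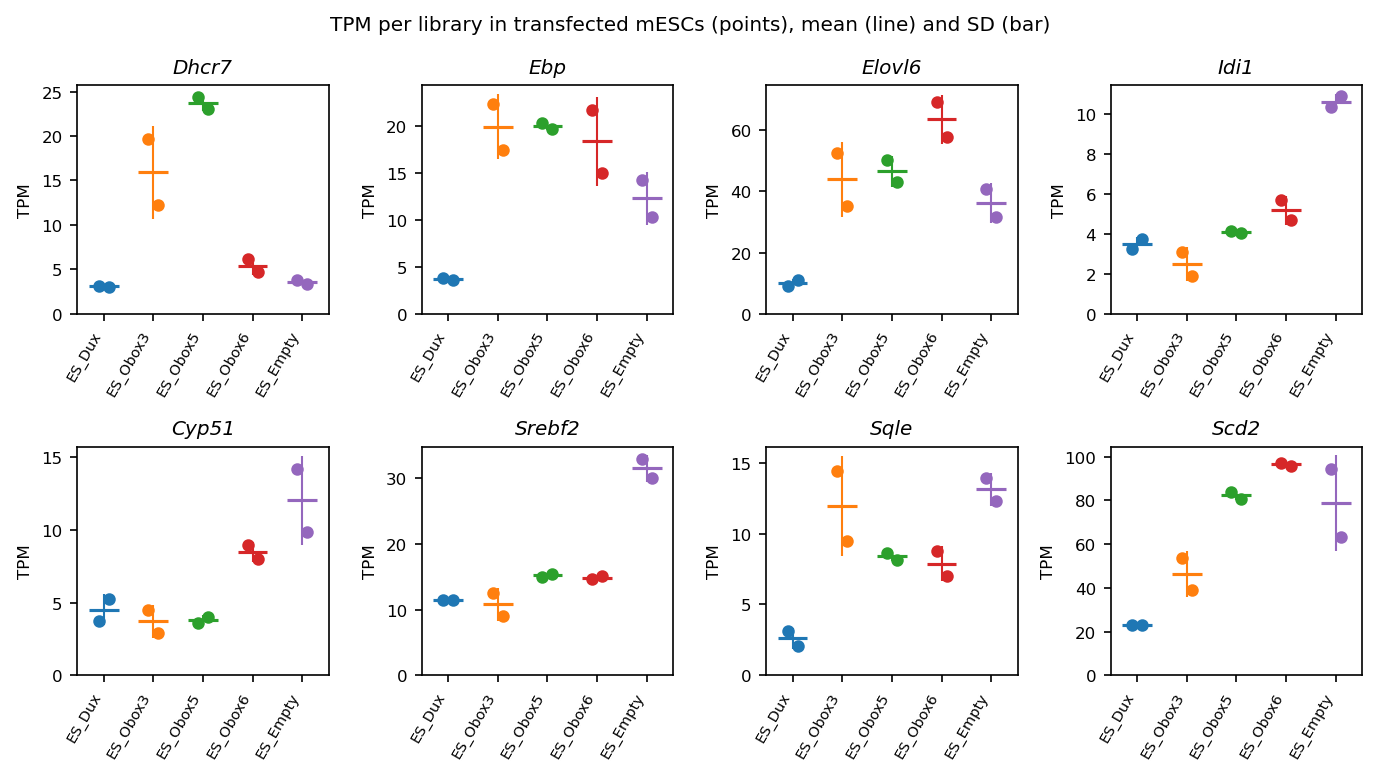
TPM of selected genes in the replicated ES groups, 1 point per library, with the mean (line) and SD (bar, n = 2). Dhcr7 lies between 12.2 and 24.4 TPM in ES_Obox3 and ES_Obox5 and at 6.12 TPM or below in the other groups, and Idi1 is highest in ES_Empty.

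In ES_Dux most of these genes had lower TPM than in ES_Empty, as did the typical gene. As deposited, limma called 20 of 28 lower, against 44.4% of all genes, and 0 higher, against 4.12%, with 25 at an unadjusted p under 0.05, against 66.7% of all genes. After scaling it called 0 of 28 in either direction, against 2.14% lower and 6.98% higher of all genes, with 11 at an unadjusted p under 0.05, against 35.2% of all genes. On both scales it called 0, against 4.11% higher and 2.14% lower of all genes. The median of the 28 genes lay 0.26 below that of all genes as deposited, and the median scaled log2 fold change was -0.03. Those called lower as deposited thus had no call once the typical gene was brought to the same level. The lowest relative to all genes was Sqle, at 3.13 and 2.09 TPM in ES_Dux and 13.9 and 12.3 TPM in ES_Empty. Sqle had a log2 fold change of -1.98 ± 0.24 (limma adjusted p = 0.000354), and -0.78 ± 0.18 after scaling (limma adjusted p = 0.0219), under the fold threshold. Srebf1, the SREBP that drives the fatty acid branch, had 2.46 and 2.56 TPM in ES_Dux and 12.8 and 11.4 TPM in ES_Empty, with -1.90 as deposited (limma adjusted p = 0.000418) and -0.71 scaled. The libraries of both genes stayed apart on both scales. The sign for Dhcr7 differed between the scales. It had 3.16 and 3.06 TPM in ES_Dux and 3.83 and 3.35 TPM in ES_Empty, a log2 fold change of -0.16 (limma adjusted p = 0.583), and 0.98 after scaling (limma adjusted p = 0.000984), just under the threshold of 1. All 6 fatty acid genes and all 3 squalene and lanosterol genes were among those called lower as deposited, against 3 of 7 of the mevalonate arm. Of the 6 ES cell markers, limma called 5 lower in ES_Dux as deposited and 2 on both scales, against 44.4% and 2.14% of all genes. The counts in ES_Obox3 were also 5 and 2, against 13.6% and 3.75% of all genes. All 6 markers of 2-cell embryos were called higher on both scales in ES_Dux, against 4.11% of all genes, and 0 of 6 in ES_Obox3, against 4.6%. The part of these markers in the values of the 28 genes was not tested.

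Set directly against Obox3, 4 of 28 genes were lower with Dux on both scales, against 9.01% of all genes. They were Ebp, Elovl6, Dhcr7 and Sqle, with log2 fold changes of -2.13, -2.01, -2.004 and -1.83 as deposited, and -1.47, -1.26, -1.36 and -1.22 after scaling. Limma adjusted p-values were 0.000267, 0.000414, 0.000365 and 0.000655 as deposited. Ebp had 3.85 and 3.64 TPM in ES_Dux and 22.4 and 17.5 TPM in ES_Obox3. Elovl6 had 9.01 and 10.9 TPM in ES_Dux and 52.5 and 35.3 TPM in ES_Obox3, and Sqle 3.13 and 2.09 TPM in ES_Dux and 14.4 and 9.47 TPM in ES_Obox3. None of these pairs overlapped, which adds little because the genes were chosen by their calls. As deposited, 8 of 28 genes were called lower, against 20.3% of all genes, and 0 higher, against 3.42%; after scaling 4 were lower and 1 higher, against 9.21% and 8.3%. Without ES_Obox3 replicate 1 the calls as deposited numbered 5, where 16% of all genes were called, against 23.7% with all libraries, and without the unnumbered ES_Dux library Sqle stood at -0.91 after scaling. The 1 called higher after scaling was Idi1, at 3.22 and 3.71 TPM in ES_Dux and 3.07 and 1.90 TPM in ES_Obox3 (0.38 as deposited, and 1.06 scaled; limma adjusted p = 0.202 and 0.000428). The 4 comparisons with ES_Empty share its libraries, and those with ES_Obox3 share that group.

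The 9 constructs with a single library have no replicate, so their values are a description. Expression of their own plasmid genes was not checked, so a lack of difference does not measure what these factors do. After the median of all genes was taken off, 0 of 28 genes differed from the ES_Empty mean by 1 or more on the log2 scale in any of these libraries, where 1.99 to 6.32% of all genes did so in 1 direction. The widest differences were Scd2 at 0.96 and Dhcr7 at -0.86 in ES_Obox8, Scd1 at 0.92 in ES_Obox4ps27 and Ebp at -0.88 in ES_Obox4ps35. Dhcr7 had 1.55 TPM with Obox8 and 2.54 to 4.70 TPM with the other 8, against 12.2 to 24.4 TPM in the ES_Obox3 and ES_Obox5 libraries. Scd2 had 153 TPM with Obox8, against 94.3 and 63.2 TPM in ES_Empty.

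**Figure D3:**
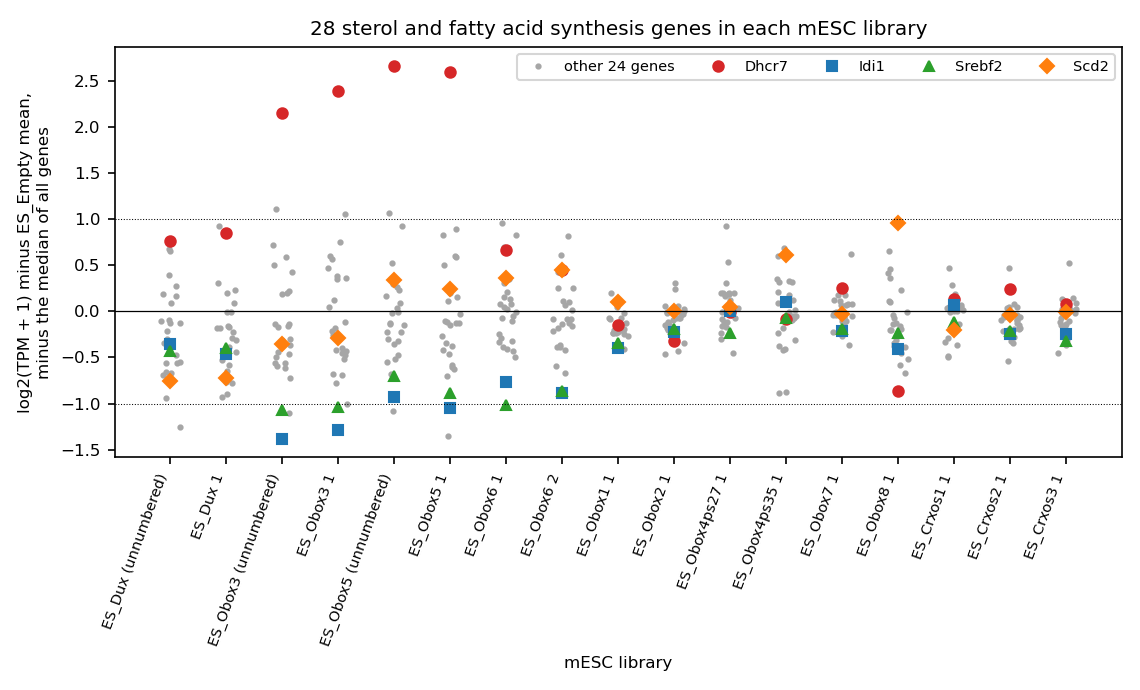
Difference of each ES library from the ES_Empty mean in log2(TPM + 1), after the median of all genes was taken off, for the 28 genes. The 9 single libraries lie between -0.88 and 0.96, while Dhcr7 reaches 2.15 to 2.66 in the ES_Obox3 and ES_Obox5 libraries.

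In embryos, clones that received EGFP mRNA were first compared with fertilised embryos of the same stage. The labels give an injected mRNA for both kinds of clone and none for ICSI_L2C. Cloning and mRNA injection thus cannot be told apart in any comparison with ICSI_L2C. Scd2, Acat2 and Dhcr7 were higher in SCNT_EGFP_L2C, and Fdft1 was lower, on both scales. Scd2 (ENSMUSG00000025203.6, chr19:44293676-44306864) had 14.4 and 10.9 TPM in SCNT_EGFP_L2C, a mean of 12.7 ± 2.50 TPM, against 1.00 and 0.759 TPM in ICSI_L2C, a mean of 0.880 ± 0.170 TPM (SD, n = 2 each). The 2 groups did not overlap, and the log2 fold change was 2.85 ± 0.27 (limma adjusted p = 0.00251), and 2.97 ± 0.30 after scaling (limma adjusted p = 0.0038). By an estimate from short genes, a transcript of 1 kb at 1 TPM rested on 7.4 and 5.06 reads in the ICSI_L2C libraries. The ICSI_L2C level of Scd2 may thus rest on few reads, though a longer transcript rests on more. Acat2 (ENSMUSG00000023832.14, chr17:12943042-12960725), the cytosolic thiolase that joins 2 acetyl-CoA at the head of the mevalonate arm, had 9.37 and 11.5 TPM in SCNT_EGFP_L2C and 2.39 and 2.84 TPM in ICSI_L2C. For Acat2 the log2 fold change was 1.66 ± 0.20 (limma adjusted p = 0.00415), and 1.82 ± 0.16 after scaling (limma adjusted p = 0.00317). Dhcr7 had 12.1 and 14.1 TPM in SCNT_EGFP_L2C and 5.29 and 6.73 TPM in ICSI_L2C, a log2 fold change of 1.02 ± 0.21 (limma adjusted p = 0.0169), and 1.21 ± 0.16 after scaling (limma adjusted p = 0.00619). Neither gene's libraries overlapped. As deposited, the Dhcr7 call was lost without ICSI_L2C replicate 1, SCNT_EGFP_L2C replicate 1 or SCNT_EGFP_L2C replicate 2 (limma adjusted p from 0.0636 to 0.0752).

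The 3 most abundant genes of the list in fertilised embryos were lower in clones. Fdft1 (ENSMUSG00000021273.11, chr14:63145150-63181687) had 46.6 and 43.6 TPM in SCNT_EGFP_L2C, a mean of 45.1 ± 2.11 TPM, against 116 and 119 TPM in ICSI_L2C, a mean of 117 ± 2.32 TPM (SD, n = 2 each). The groups stood far apart, and the log2 fold change was -1.36 ± 0.15 (limma adjusted p = 0.0036), and -1.14 ± 0.13 after scaling (limma adjusted p = 0.00486). Hmgcs1 (ENSMUSG00000093930.2, chr13:119690351-119708260) had 23.9 and 30.2 TPM in SCNT_EGFP_L2C and 58.2 and 68.4 TPM in ICSI_L2C, and Sqle 25.9 and 24.7 TPM in SCNT_EGFP_L2C and 46.2 and 61.3 TPM in ICSI_L2C. Both were called lower as deposited (-1.20 and -1.04; limma adjusted p = 0.00755 and 0.0158), and after scaling they stood at -0.99 and -0.83, under the fold threshold. The Sqle call was lost without ICSI_L2C replicate 2 or either SCNT_EGFP_L2C library (limma adjusted p = 0.0732, 0.0703 and 0.0584). Elovl6 had 14.7 and 22.0 TPM in SCNT_EGFP_L2C and 34.5 and 51.0 TPM in ICSI_L2C and was likewise called as deposited only (-1.18, and -0.96 scaled; limma adjusted p = 0.0229). That call was lost without ICSI_L2C replicate 2 or SCNT_EGFP_L2C replicate 1 (limma adjusted p = 0.1 and 0.108). In total limma called 3 of 27 genes higher, against 4.8% of all genes, and 4 lower, against 12.5%; after scaling 5 were higher and 1 lower, against 6.1% and 8.82%, and on both scales 3 were higher and 1 lower, against 4.74% and 8.82%. Without SCNT_EGFP_L2C replicate 1 the calls as deposited numbered 4, where 8.39% of all genes were called, against 17.3% with all libraries. The 2 added as higher by scaling were Pmvk, a kinase of the mevalonate arm (1.09), and Srebf1 (1.01), and neither kept its call when any one library was left out. The median of the 27 genes stood 0.57 above that of all genes, at 0.53 after scaling, and 21 of 27 lay above it. The squalene and lanosterol genes stood 0.85 below that of all genes at their median, with 2 of 3 called lower as deposited and 1 of 3, Lss (lanosterol synthase), above it.

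Clones injected with Obox3 mRNA were set against the same fertilised embryos, whose libraries both comparisons share. Injected RNA and the embryo's own RNA cannot be told apart, and the Obox3-ps5 row had 56.8 and 62.4 TPM in SCNT_Obox3_L2C, 1.19 and 6.87 TPM in SCNT_EGFP_L2C, and 118 and 99.5 TPM in ICSI_L2C. Against ICSI_L2C, limma called 2 of 27 genes higher in SCNT_Obox3_L2C, against 2.8% of all genes, and 2 lower, against 6.31%; after scaling 2 were higher and 1 lower, against 4.05% and 3.85%. On both scales Scd2 and Acat2 were higher and Hmgcs1 lower, 2 and 1 of 27 against 2.76% and 3.85%. Scd2 had 7.33 and 4.66 TPM in SCNT_Obox3_L2C and 1.00 and 0.759 TPM in ICSI_L2C, with a log2 fold change of 1.87 ± 0.27 (limma adjusted p = 0.013), and 2.01 ± 0.30 after scaling. Acat2 had 6.66 and 7.15 TPM in SCNT_Obox3_L2C and 2.39 and 2.84 TPM in ICSI_L2C, with 1.13 ± 0.20 (limma adjusted p = 0.0214), and 1.32 ± 0.16 after scaling. Hmgcs1 had 25.7 and 24.5 TPM in SCNT_Obox3_L2C and 58.2 and 68.4 TPM in ICSI_L2C, with -1.30 ± 0.19 (limma adjusted p = 0.0125), and -1.05 ± 0.13 after scaling. None of the 3 overlapped between groups. Sqle, at 22.6 and 28.5 TPM in SCNT_Obox3_L2C and 46.2 and 61.3 TPM in ICSI_L2C, was called lower as deposited only (-1.04, and -0.79 scaled; limma adjusted p = 0.0271). These calls rest on all 4 libraries: with any one left out, 0 or 1 gene was called on either scale, where 2.27 to 3.39% of all genes were called as deposited and 0.0449 to 3.67% scaled. Scd2 then had limma adjusted p-values from 0.0514 to 0.0555 in 3 of 4 cases, Acat2 from 0.0631 to 0.11 in all 4, and Hmgcs1 from 0.0548 to 0.073 in 3 of 4.

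**Figure D4:**
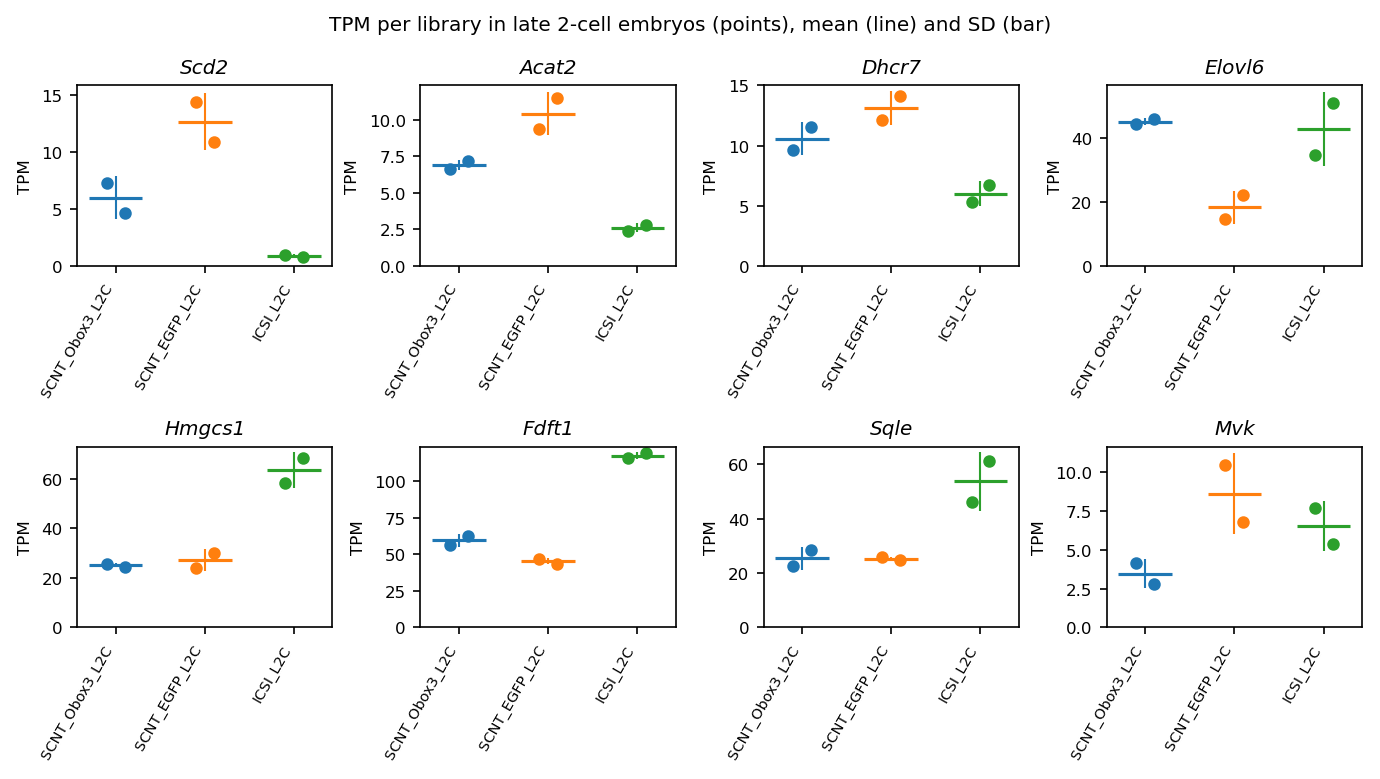
TPM of 8 genes in late 2-cell embryos, 1 point per library, with the mean (line) and SD (bar, n = 2). Fdft1, Hmgcs1 and Sqle are highest in ICSI_L2C, Scd2, Acat2 and Dhcr7 are lowest there, and Elovl6 lies at 14.7 and 22.0 TPM in SCNT_EGFP_L2C and at 34.5 TPM or above in the other 2 groups.

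Between the 2 kinds of clone no gene was called as deposited. Between SCNT_Obox3_L2C and SCNT_EGFP_L2C, limma called 0 of 27 higher or lower, against 0.11% higher and 0.0438% lower of all genes. At an unadjusted p under 0.05 were 8 of 27, against 18% of all genes. Elovl6 was called higher after scaling only, 1 of 27 against 1.41% of all genes, and 0 were called lower, against 0.175%. It had 44.4 and 45.8 TPM in SCNT_Obox3_L2C and 14.7 and 22.0 TPM in SCNT_EGFP_L2C, which did not overlap, and the ICSI_L2C libraries, at 34.5 and 51.0 TPM, spanned the SCNT_Obox3_L2C values. The log2 fold change between the clones was 1.28 ± 0.26 (limma adjusted p = 0.0979), and 1.31 ± 0.20 after scaling (limma adjusted p = 0.0426), a call that was lost whichever of the 4 libraries was left out (limma adjusted p from 0.0821 to 0.21). The next largest differences were those of 2 kinases of the mevalonate arm. Mvk had 4.13 and 2.79 TPM in SCNT_Obox3_L2C and 10.4 and 6.76 TPM in SCNT_EGFP_L2C, and Pmvk 1.42 and 1.41 TPM in SCNT_Obox3_L2C and 2.96 and 5.02 TPM in SCNT_EGFP_L2C. Their log2 fold changes were -1.10 and -1.02 (limma adjusted p = 0.139 and 0.144), and -1.07 and -0.999 after scaling, not called on either scale. The libraries of both did not overlap, which adds little because the genes were chosen by the size of their differences. Dhcr7 had 9.59 and 11.5 TPM in SCNT_Obox3_L2C and 12.1 and 14.1 TPM in SCNT_EGFP_L2C, a log2 fold change of -0.29 (limma adjusted p = 0.506), and -0.26 after scaling.

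Markers of other cells were measured in the same embryo libraries. The 11 markers of cumulus and granulosa cells summed to 6.86 and 4.53 TPM in SCNT_Obox3_L2C, 6.77 and 7.24 TPM in SCNT_EGFP_L2C, and 4.63 and 5.99 TPM in ICSI_L2C, and 1 to 3 of the 11 reached 1 TPM. Among them Ptx3, a cumulus matrix gene, was listed at 0 in all 6 libraries. Others were present in all 6, such as Serpine2 at 1.82 to 2.86 TPM and Hsd3b1 at 0.335 to 1.11 TPM. The 6 oocyte markers summed to 346 and 348 TPM in SCNT_Obox3_L2C, 403 and 436 TPM in SCNT_EGFP_L2C, and 595 and 526 TPM in ICSI_L2C. The 6 markers of 2-cell embryos summed to 160 and 247 TPM in SCNT_Obox3_L2C, 101 and 140 TPM in SCNT_EGFP_L2C, and 480 and 339 TPM in ICSI_L2C. Of the 6 markers of 2-cell embryos, limma called the same 4 lower on both scales in each kind of clone against ICSI_L2C. These were Tcstv3, Usp17la, Zscan4c and Zscan4d. Of the 6 oocyte markers, limma called 1 lower on both scales in each, Oosp1. It had 74.7 and 49.0 TPM in SCNT_Obox3_L2C and 216 and 171 TPM in ICSI_L2C, and the oocyte growth factor Bmp15 was not called. Of all genes, 8.82% were called lower on both scales in SCNT_EGFP_L2C and 3.85% in SCNT_Obox3_L2C, each against ICSI_L2C. The part of these markers in the values above was not tested.

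Neighbouring genes of the pathway gave few further calls on both scales. With Dux, 7 of 9 SREBP processing and receptor genes, 9 of 12 isoprenoid, elongation and desaturation enzymes and 3 of 6 tested sterol storage and transport genes were lower than in ES_Empty as deposited, against 44.4% of all genes, and none of these was called on both scales. Nr1h3 encodes the oxysterol receptor LXR alpha. In the list of 9 SREBP processing factors, NF-Y subunits and sterol-sensing receptors, it was the 1 gene called on both scales in ES_Obox3 and in ES_Obox5. It was higher in each, where 4.6% and 4.61% of all genes were called higher on both scales. It had 8.15 and 5.20 TPM in ES_Obox3, 2.93 and 2.20 TPM in ES_Obox5, and 0.214 and 0.693 TPM in ES_Empty, without overlap. The log2 fold changes were 2.39 ± 0.30 with Obox3 (limma adjusted p = 0.00105; 2.62 scaled) and 1.31 ± 0.30 with Obox5 (limma adjusted p = 0.0236; 1.28 scaled), where the call was lost without ES_Empty replicate 1 or either ES_Obox5 library (0.154, 0.127 and 0.0711). Nr1h3 was lower in ES_Dux and in ES_Obox6 than in ES_Obox3, with log2 fold changes of -2.41 and -2.51 (limma adjusted p = 0.000535 and 0.00216), and -2.17 and -2.69 after scaling. Of the 12 other isoprenoid, elongation and desaturation enzymes, the desaturases Fads1 and Fads2 were the 2 called on both scales in clones. Both were higher than in ICSI_L2C, where 4.74% of all genes were called higher on both scales in SCNT_EGFP_L2C and 2.76% in SCNT_Obox3_L2C. Fads1 had 1.67 and 2.16 TPM in SCNT_Obox3_L2C, 2.04 and 3.70 TPM in SCNT_EGFP_L2C, and 0.196 and 0.0821 TPM in ICSI_L2C. Fads2 had 3.01 and 2.11 TPM in SCNT_Obox3_L2C, 3.30 and 2.14 TPM in SCNT_EGFP_L2C, and 0.368 and 0.240 TPM in ICSI_L2C, so that both genes were near 0 in fertilised embryos, as Scd2 was near 1 TPM. Their log2 fold changes were 1.35 and 1.44 in SCNT_Obox3_L2C (limma adjusted p = 0.0404 and 0.0272; 1.41 and 1.53 scaled) and 1.73 and 1.495 in SCNT_EGFP_L2C (limma adjusted p = 0.0118 and 0.0143; 1.77 and 1.56 scaled). In SCNT_Obox3_L2C both calls were lost whichever library was left out (limma adjusted p from 0.0844 to 0.175), and in SCNT_EGFP_L2C without ICSI_L2C replicate 2 (0.0531 and 0.0625), for Fads1 without SCNT_EGFP_L2C replicate 2 (0.0605) and for Fads2 without SCNT_EGFP_L2C replicate 1 (0.093). Of 8 tested SREBP processing and receptor genes, 3 were lower in SCNT_EGFP_L2C as deposited and 1 on both scales, against 12.5% and 8.82% of all genes. This was Nfyb, an NF-Y subunit, lower in SCNT_EGFP_L2C, at 14.0 and 16.6 TPM, than in ICSI_L2C, at 47.3 and 59.0 TPM (-1.73, and -1.51 scaled; limma adjusted p = 0.00322). Of the 7 sterol storage and transport genes, Npc2, which hands cholesterol out of lysosomes, was called on both scales only between ES_Dux and ES_Obox3. It had 3.66 and 4.12 TPM in ES_Dux and 21.3 and 14.3 TPM in ES_Obox3 (-1.92, and -1.25 scaled, limma adjusted p = 0.000584). In that comparison 9.01% of all genes were called lower on both scales.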

How the data were processed

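Total RNA of ES cells and late 2-cell embryos was made into stranded SMART-seq libraries, per the labels' protocols. The authors deposited TPM per gene, per the file headers, in a table for each setting. Per the submitters' processing notes, tools used in the series include Trim Galore, HISAT2, Bowtie2, featureCounts 1.6.5, MACS2, deepTools and bedtools, with the mouse build mm10; no roles are given. Annotation, strand setting and the handling of reads with several matches were not given in the sources used here. Table columns were tied to samples through their names; for 3 ES columns, 1 each of ES_Dux, ES_Obox3 and ES_Obox5, only the group could be matched, and these are called unnumbered.

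Depth was inferred from the low values of 3136 short genes. By this estimate a 1 kb transcript at 1 TPM rested on 2.27 to 7.37 reads in ES cells and 5.06 to 13.9 in embryos. Per library, 52.7 to 61.75% of the short-gene values above 0 in ES cells were whole multiples of the assumed 1-read step. In embryos 56.6 to 60.15% were, so the estimate is rough. Libraries of a group correlated across genes at 0.935 to 0.953 in ES cells and 0.944 to 0.949 in embryos, and none were identical. The labels do not tie replicates to separate cultures or collections, so a p-value here reflects the spread among these libraries alone, which may be technical.

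Genes at 1 TPM or more in at least 2 libraries (20355 in ES cells, 18252 in embryos) were tested as log2(TPM + 1) with limma 3.58.1 (R 4.3.3, with statmod 1.5.0; variance trend, robust moderation, Benjamini-Hochberg adjustment over all genes tested), with all replicated groups of a table in 1 fit (5 and 3 residual degrees of freedom). The fit was tested on simulated data. This scale understates the change of low genes. Statements that libraries did not overlap are descriptions, and the share of all genes without overlap was not counted. The tables were normalised separately and were not tested against each other.

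Genes described per library were those called on both scales or, where fewer than 3 were, the 3 farthest from the median of all genes, and up to 4 such genes from each related list; other genes named were chosen after their values were seen, with each left-out library also tried for those called. Members and lists were chosen with earlier results of these data known. Alternatives were median-ratio scaling, a pseudocount of 0.1, no filter, fits of 2 groups only, a replicate block and leaving out each library; those that combine scaling with the block or a left-out library were chosen after seeing the data.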

Additional observations from a re-analysis of the deposited data

Results flagged for a closer look

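Dhcr7 was called higher with Obox3 in ES cells and had no call in cloned embryos, where its values were slightly lower. Its log2 fold change was 1.85 in ES_Obox3 against ES_Empty, with both ES_Obox3 libraries above both ES_Empty libraries, and -0.29 in SCNT_Obox3_L2C against SCNT_EGFP_L2C, with both SCNT_Obox3_L2C libraries below both SCNT_EGFP_L2C libraries. The order was the same on both scales. The embryo difference was not called (limma adjusted p = 0.506), and the difference between the settings was not tested, since the tables were normalised separately.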

How the results depend on the processing

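Scaling and single libraries decided most counts. After median-ratio scaling the number of genes called was 0 in ES_Dux, 3 in ES_Obox3 and 0 in ES_Obox6 (each against ES_Empty), 5 in ES_Dux and 1 in ES_Obox6 (each against ES_Obox3), and 1 in SCNT_Obox3_L2C against SCNT_EGFP_L2C. The median relative to all genes became 0.0072 in ES_Dux and -0.13 in ES_Obox3. Dhcr7 in ES_Dux against ES_Empty turned to 0.98 after scaling, and to 0.92 to 1.08 when a library was left out as well. With a pseudocount of 0.1, 11 genes were called in ES_Obox3, where 22.7% of all genes were called against 18.3% at a pseudocount of 1, and the ES_Dux median was -0.0198. Without a filter on low values, medians were -1.15 in ES_Dux, -0.70 in ES_Obox3, -0.34 in ES_Obox5 and 0.38 in SCNT_EGFP_L2C against ICSI_L2C, where many genes near 0 enter the median of all genes, and 2 genes were called in SCNT_Obox3_L2C against ICSI_L2C (2.02% of all genes). With only the 2 groups fitted, the ES_Dux median was -0.11. The cause of the other shifts was not tested.

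With 1 library left out at a time, as deposited and then scaled, the genes called against ES_Empty numbered 16 to 21 and 0 to 1 in ES_Dux, 4 to 13 and 3 to 4 in ES_Obox3, 2 to 3 and 2 to 3 in ES_Obox5, and 0 and 0 to 1 in ES_Obox6. They numbered 5 to 10 and 4 to 6 in ES_Dux and 0 to 8 and 1 to 2 in ES_Obox6 against ES_Obox3. In embryos they numbered 4 to 6 and 4 to 7 in SCNT_EGFP_L2C and 0 to 1 and 0 to 1 in SCNT_Obox3_L2C against ICSI_L2C, and 0 throughout between the clones. The share of all genes called moved in the same fits, as deposited and then scaled: against ES_Empty it was 43.3 to 50.7% and 7.05 to 7.96% in ES_Dux, 11.3 to 24.7% and 9.88 to 10.3% in ES_Obox3, 5.41 to 6.26% and 6.64 to 7.03% in ES_Obox5, and 1.64 to 2.03% and 2.7 to 3.16% in ES_Obox6. Against ES_Obox3 it was 16 to 31.5% and 15.8 to 17% in ES_Dux and 3.59 to 12.9% and 5.89 to 6.3% in ES_Obox6. Against ICSI_L2C it was 8.39 to 15.3% and 6.71 to 11.2% in SCNT_EGFP_L2C and 2.27 to 3.39% and 0.0449 to 3.67% in SCNT_Obox3_L2C, and between the clones at most 0.0285% and 0. Relative medians ranged from -0.37 to -0.15 and -0.10 to 0.0155 in ES_Dux, -0.33 to -0.22 and -0.23 to -0.0909 in ES_Obox3, -0.18 to -0.12 and -0.10 to -0.04 in ES_Obox5, and -0.07 to 0.02 and -0.01 to 0.05 in ES_Obox6. In embryos they ranged from 0.40 to 0.72 and 0.38 to 0.67 in SCNT_EGFP_L2C against ICSI_L2C, 0.31 to 0.35 and 0.25 to 0.36 in SCNT_Obox3_L2C against ICSI_L2C, and -0.30 to -0.13 and -0.31 to -0.14 between the clones.

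Samples with the same replicate number did not deviate together (correlations of 0.0141 to 0.0666), and the main fit did not pair them. Whether same-numbered libraries share a culture or collection was not tested. With a replicate block, 0 genes were called in ES_Obox6, with or without scaling (0.00583% of all genes in both), and 4 in SCNT_EGFP_L2C against ICSI_L2C with scaling (14% of all genes). No paired analysis was possible for ES_Dux, ES_Obox3 and ES_Obox5 because 1 library of each carries no usable number.

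For the named genes, 472 alternative values kept direction and side of the threshold, 194 lost the call, 19 gained it and 5 reversed, all of them Dhcr7 in ES_Dux with scaling. Depth limits genes near 1 TPM, such as Hsd17b7, Tm7sf2 and, in fertilised embryos, Scd2.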
